A study of Mus musculus with 15 samples.

Results

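The genes described here are 10 genes of osteoclast differentiation and cell fusion: Tnfrsf11a, Csf1r, Oscar, Src, Nfatc1, Dcstamp, Ocstamp, Acp5, Mmp9 and Calcr. They were chosen by name and read from their rows of a count table of 25639 gene symbols; 8 of the 10 passed the filter on low counts that left 12401 genes for testing, while Oscar and Calcr did not. RNA had been sequenced from wild-type RAW264.7 cells, a mouse macrophage line that can form osteoclasts in culture. The peptide LCCL had been given at 10 µg (24 h or 6 h) or at 1 µg (24 h or 6 h), and with the untreated cells this made 5 groups of 3 libraries. All groups share 1 cell line and 1 batch name, and the labels state the amounts of peptide without a volume. Neither a vehicle group nor the time at which untreated cells were harvested is named, so treatment and time in culture cannot be told apart in the comparisons with them. No label says that the libraries came from separate cultures, so the p-values speak only to variation among these libraries, which could be technical.

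Osteoclasts are the large, multinucleated cells that dissolve bone, and they arise when precursors of the macrophage lineage fuse. M-CSF, acting on its receptor CSF1R, keeps the precursors alive, and RANKL, acting on RANK (the product of Tnfrsf11a), starts the osteoclast program; the co-receptor OSCAR adds a calcium signal. These inputs converge on NFATc1, the master transcription factor, which drives the fusion proteins DC-STAMP and OC-STAMP and the resorption genes, among them Acp5, while the kinase SRC organises the sealing ring and the ruffled border.

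The windows of 250 bases directly before the annotated transcription start are shown for Src, the kinase gene that rose, for Tnfrsf11a, a receptor gene that fell, and for Oscar, a known target of NFATc1 in mice that stayed near the detection floor. The sequences are RefSeq's on GRCm38.p6, at chr2:157424043-157424292 (plus strand) for Src, chr1:105780473-105780722 (plus strand) for Tnfrsf11a and chr7:3616158-3616407 (minus strand) for Oscar, each written along the gene's strand. Capitals mark matches to the AP-1, PU.1 or NFAT motif.
Src: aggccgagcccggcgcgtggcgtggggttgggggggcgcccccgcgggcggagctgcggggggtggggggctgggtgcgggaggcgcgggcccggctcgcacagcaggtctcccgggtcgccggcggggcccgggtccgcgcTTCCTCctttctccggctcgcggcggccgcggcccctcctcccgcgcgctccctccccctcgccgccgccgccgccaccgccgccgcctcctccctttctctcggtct
Tnfrsf11a: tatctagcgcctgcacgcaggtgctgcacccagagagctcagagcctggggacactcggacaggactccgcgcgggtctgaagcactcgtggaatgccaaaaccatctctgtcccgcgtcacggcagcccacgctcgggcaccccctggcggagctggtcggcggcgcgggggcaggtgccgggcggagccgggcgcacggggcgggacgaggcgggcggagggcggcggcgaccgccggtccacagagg
Oscar: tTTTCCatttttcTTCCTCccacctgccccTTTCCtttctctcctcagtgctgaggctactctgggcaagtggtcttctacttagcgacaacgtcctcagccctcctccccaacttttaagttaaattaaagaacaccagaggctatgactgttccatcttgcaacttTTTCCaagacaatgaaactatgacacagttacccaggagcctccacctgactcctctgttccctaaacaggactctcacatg
Both strands were searched for 5 motifs: AP-1 (TGANTCA), PU.1 (GAGGAA), NFAT (GGAAA), the E-box bound by MITF (CACGTG) and kappaB (GGGNN followed by TTTCC). The last bases of a PU.1 match can also begin an NFAT match. Of 32851 promoter windows of the same length in the table, 6.75% held the AP-1 motif, 23.3% the PU.1 motif, 55.6% the NFAT motif, 6.02% the E-box and 1.41% the kappaB motif. The Src window held 1 PU.1 match, starting at position -108 from the transcription start. The Oscar window held 1 PU.1 match at -237 and 3 NFAT matches at -249, -220 and -82. The Tnfrsf11a window held none of the 5 motifs. A match here describes letters in a window and is not a binding site.

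Library totals ran from 19085148 to 22434642 counts, and levels are given in CPM, that is, as counts relative to library size after TMM scaling of each library. Differences are log2 fold changes ± SE, the first-named group over the second. Adjusted p-values come from the quasi-likelihood test of edgeR with Benjamini-Hochberg adjustment over all 12401 genes, and rose, fell and called are used at an adjusted p under 0.05. One library, 1 µg 24 h replicate 1, stood apart from its group by chi-square. Against its partners it had 13.5 and 15.26 per degree of freedom, and the other pairs of replicates had 2.55 to 7.14. By the median absolute log2 difference from its partners over tested genes it stood apart little. That was 0.118, beside 0.105 for 10 µg 24 h replicate 1 and 0.103 for 1 µg 24 h replicate 3. Where leaving out 1 µg 24 h replicate 1 changed a call among the 8 tested genes, the result is given with and without it. The lymphocyte and granulocyte markers Cd3e and Ly6g and the stromal markers Col1a1 and Col3a1 had no count in any library. The sum of the 8 lymphoid and granulocyte markers was 0.728 to 0.908 CPM at 10 µg 24 h, 0.51 to 0.649 CPM at 10 µg 6 h, 0.883 to 1.04 CPM at 1 µg 24 h, 0.37 to 0.701 CPM at 1 µg 6 h and 0.244 to 0.274 CPM in untreated cells. Runx2 made up nearly all of the 8 osteoblast and stromal markers, whose sum was 31.5 to 36.2 CPM over the libraries of both 24 h groups, 19.95 to 25.4 CPM over those of both 6 h groups and 20.1 to 21.8 CPM in untreated cells. The part of either marker list in the results that follow was not tested.

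The 10 genes spanned a wide range of levels. Per kb of exon in untreated cells, the mean was highest for Csf1r (249.2 CPM per kb), then Dcstamp (51.5), Nfatc1 (32.5), Tnfrsf11a (22.98), Src (6.57), Acp5 (4.49) and Ocstamp (1.41 CPM per kb). Mmp9 (0.219 CPM per kb) and Oscar (0.139 CPM per kb) followed, and their libraries overlapped; no other neighbours in this order did, with Calcr, the calcitonin receptor gene of mature osteoclasts, last. Calcr had at most 1 count in any of the 15 libraries, under the floor of 3 counts (0.13 to 0.16 CPM per library, counting error only). Of the other markers of mature osteoclasts, Ctsk, the gene of a collagen-degrading protease, averaged 2219 ± 75.5 CPM in untreated cells (SD, n = 3). Itgb3, the beta chain of the vitronectin receptor, averaged 2.37 ± 0.268 CPM there, and the lectin gene Siglec15 4.85 ± 0.701 CPM.

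**Figure D1:**
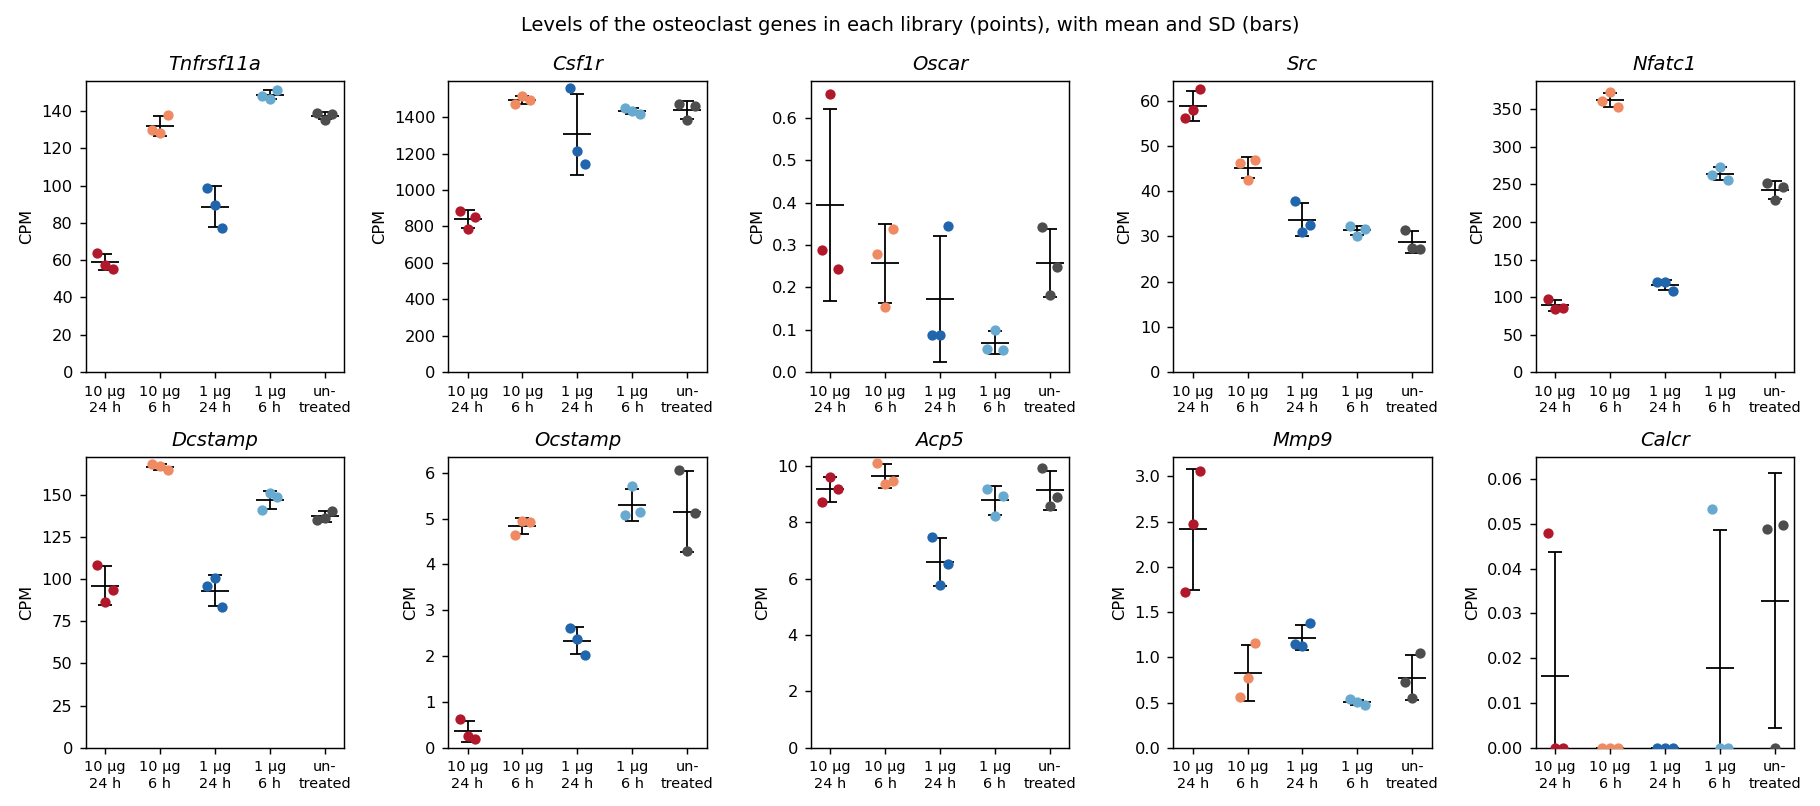
Level of each of the 10 genes in CPM (y axis, starting at 0, a scale per gene) in each of the 15 libraries (points), with the group mean and SD (bars), by peptide amount and time. Nfatc1 lies at 84.2 to 97.8 CPM at 10 µg 24 h and at 354 to 373 CPM at 10 µg 6 h, while Src is highest at 10 µg 24 h.

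How the cells differed from untreated cells was asked for each amount and time. At 10 µg for 6 h, 3 of the 8 tested genes rose (Src, Nfatc1 and Dcstamp) and 0 fell. Of all tested genes 5.95% were called in that comparison, 4.09% higher and 1.86% lower. At 10 µg for 24 h, 7 of the 8 were called, 2 higher (Src and Mmp9) and 5 lower (Nfatc1, Tnfrsf11a, Ocstamp, Csf1r and Dcstamp). Of all tested genes 70.3% were called there, 35.4% higher and 34.9% lower. At 1 µg for 24 h, 6 of the 8 were called, 1 higher (Src) and 5 lower (Nfatc1, Tnfrsf11a, Dcstamp, Ocstamp and Acp5). Of all tested genes 61.8% were called there, 30.8% higher and 31.0% lower. The calls at 24 h, 87.5% of the 8 at 10 µg and 75% at 1 µg, are thus near the shares of all genes. At 1 µg for 6 h edgeR called 0 of the 8 and 0.0% of all genes; 1 of the 8, Nfatc1, had an unadjusted p under 0.05, as did 337 genes in all, and DESeq2 also called 0. The median log2 fold change of the 8 was -0.64 at 10 µg 24 h, 0.09 at 10 µg 6 h, -0.51 at 1 µg 24 h and 0.07 at 1 µg 6 h, beside medians of 0.01, 0.00, 0.01 and 0.00 over all tested genes. These 4 comparisons share the untreated libraries.

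**Figure D2:**
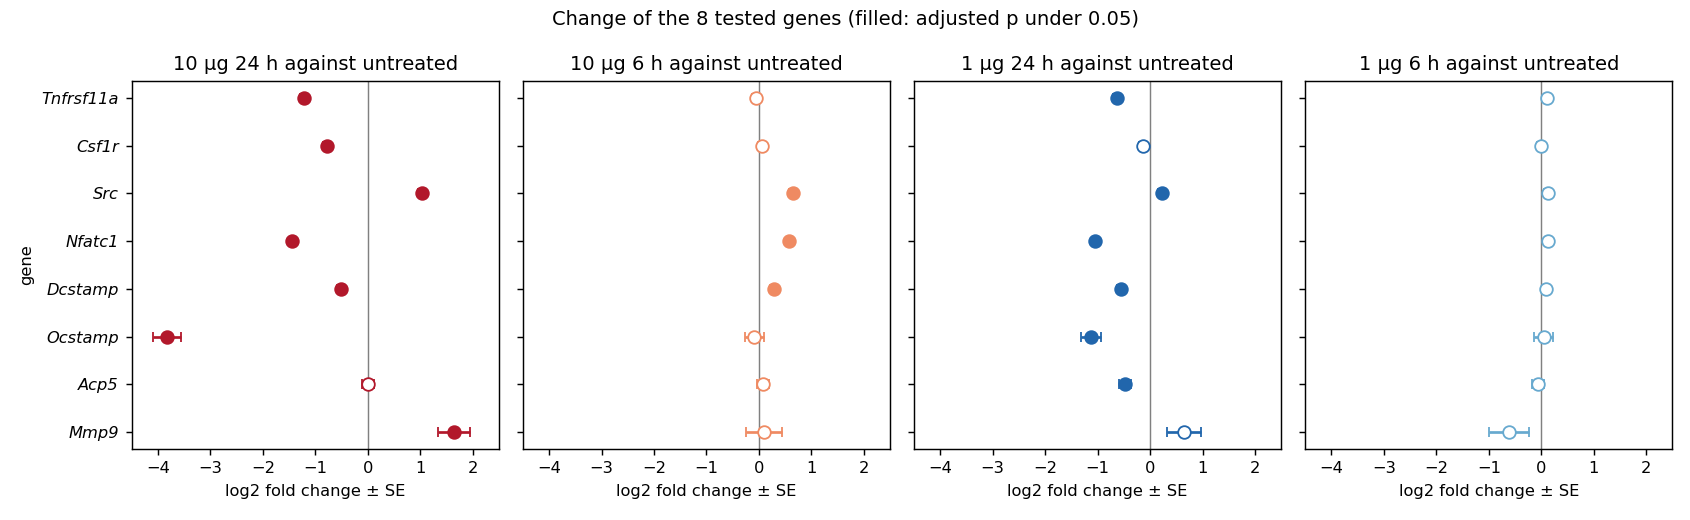
Log2 fold change over untreated cells ± SE (x axis) of the 8 tested genes (rows) for the 4 treated groups (panels), with filled points at an adjusted p under 0.05. The points at 24 h spread from Ocstamp at -3.82 to Mmp9 at 1.64 with 10 µg, while no point is filled at 1 µg 6 h.

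Both receptor genes fell at 10 µg 24 h. Tnfrsf11a, the gene of the RANKL receptor, had 63.7, 57.6 and 55.2 CPM at 10 µg 24 h and 129.6, 128 and 137.9 CPM at 10 µg 6 h. With 1 µg, Tnfrsf11a had 98.8, 89.8 and 77.1 CPM at 24 h and 147.9, 146.6 and 151.2 CPM at 6 h, against 138.8, 135.4 and 138.5 CPM in untreated cells. Every 24 h library lay below every untreated library, the 10 µg ones lowest, while both 6 h groups stayed near the untreated level. It fell by 1.23 ± 0.07 at 10 µg 24 h (adjusted p = 1.03e-13, 2.34-fold lower) and by 0.63 ± 0.07 at 1 µg 24 h (adjusted p = 1.42e-08). In bulk RNA, fewer cells with a transcript and less of it per cell cannot be told apart, here and in all results that follow.

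Csf1r, the gene of the M-CSF receptor, had 883, 786 and 853 CPM at 10 µg 24 h and 1473, 1516 and 1496 CPM at 10 µg 6 h. With 1 µg, Csf1r had 1560, 1213 and 1143 CPM at 24 h and 1452, 1435 and 1420 CPM at 6 h, against 1470, 1382 and 1464 CPM in untreated cells. Only the 10 µg 24 h libraries stood wholly below the others, and at 1 µg 24 h the library that stood apart was higher than the untreated cells while its partners were lower. It fell by 0.77 ± 0.08 at 10 µg 24 h (adjusted p = 9.93e-08), and at 1 µg 24 h the value was -0.14 ± 0.08 (adjusted p = 0.142). Without 1 µg 24 h replicate 1 the value at 1 µg 24 h was -0.29 ± 0.05 (adjusted p = 7.24e-06). The 10 macrophage markers summed to 11590 to 12710 CPM at 10 µg 24 h, 14560 to 14690 CPM at 10 µg 6 h, 13950 to 16270 CPM at 1 µg 24 h, 14370 to 14840 CPM at 1 µg 6 h and 14480 to 15000 CPM in untreated cells. Lyz2 was the largest part of this sum, with 7573 ± 505 CPM at 10 µg 24 h and 9936 ± 166 CPM in untreated cells. Of the 9 markers that were tested, 6 rose and 3 fell at 10 µg 24 h (Cd14, Lyz2 and Spi1). That is 100% called, beside 70.3% of all tested genes. The part of these markers in the Csf1r result was not tested. In GENCODE M21, 873 exon bases of Csf1r overlap Hmgxb3 on the other strand; Hmgxb3 had 841 to 1110 counts per library, against 15579 to 35326 for Csf1r.

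Oscar, the collagen-binding co-receptor gene, summed over its 3 libraries to 24 counts at 10 µg 24 h, 16 at 10 µg 6 h, 11 at 1 µg 24 h, 4 at 1 µg 6 h and 16 in untreated cells, with 1 to 13 counts in a library. The treated groups overlapped with the untreated cells, apart from 1 µg 6 h, whose libraries all lay below them. With no filter on low counts it had a log2 fold change of 0.60 ± 0.63 at 10 µg 24 h over untreated cells (adjusted p = 0.476) and of -1.80 ± 0.85 at 1 µg 6 h (adjusted p = 1). A difference in Oscar was not detectable at this depth.

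Src, the gene of the kinase that shapes the resorbing surface, had 56.2, 58 and 62.6 CPM at 10 µg 24 h and 46.2, 42.5 and 46.98 CPM at 10 µg 6 h. With 1 µg, Src had 37.8, 30.96 and 32.4 CPM at 24 h and 32.2, 30.1 and 31.6 CPM at 6 h, against 31.5, 27.5 and 27.2 CPM in untreated cells. Both 10 µg groups lay clear above every other library, and with 10 µg the 24 h libraries lay above the 6 h ones; both 1 µg groups overlapped with the untreated cells. Src rose by 1.04 ± 0.07 at 10 µg 24 h (adjusted p = 3.19e-12, 2.05-fold higher), by 0.65 ± 0.07 at 10 µg 6 h (adjusted p = 2.86e-06) and by 0.23 ± 0.08 at 1 µg 24 h (adjusted p = 0.0104). The last call was lost without 1 µg 24 h replicate 1 (0.14, adjusted p = 0.116), untreated replicate 2 (adjusted p = 0.0558) or untreated replicate 3 (adjusted p = 0.0552).

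Nfatc1, the gene of the master factor, rose at 10 µg 6 h and fell in both 24 h groups, as Dcstamp did. Its levels were 97.8, 84.2 and 85.2 CPM at 10 µg 24 h and 360.9, 373.3 and 353.7 CPM at 10 µg 6 h. With 1 µg, Nfatc1 had 119.9, 120.4 and 108.6 CPM at 24 h and 263.2, 273.1 and 255.8 CPM at 6 h, against 251.5, 229.1 and 247.1 CPM in untreated cells. The 10 µg 6 h libraries were above all others, both 24 h groups were below all others, and the 10 µg 24 h libraries were the lowest. Against untreated cells it rose by 0.58 ± 0.06 at 10 µg 6 h (adjusted p = 2.79e-07). It fell by 1.44 ± 0.06 at 10 µg 24 h (adjusted p = 6.82e-17, 2.72-fold lower) and by 1.06 ± 0.06 at 1 µg 24 h (adjusted p = 7.21e-14). At 1 µg 6 h all 3 libraries lay above the untreated ones, by 0.12 ± 0.06, and the difference did not pass (unadjusted p = 0.037, adjusted p = 1).

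Both fusion genes fell at 24 h. Dcstamp, whose product is required for precursors to fuse, had 108.7, 86.3 and 93.5 CPM at 10 µg 24 h and 168.2, 167.1 and 164.9 CPM at 10 µg 6 h. With 1 µg, Dcstamp had 95.8, 100.7 and 83.2 CPM at 24 h and 140.8, 151 and 148.8 CPM at 6 h, against 134.9, 136 and 140.5 CPM in untreated cells. It was highest at 10 µg 6 h, and both 24 h groups, which overlapped, were below all others. It rose by 0.28 ± 0.07 at 10 µg 6 h (adjusted p = 0.0138). That call was lost without 10 µg 6 h replicate 1 or 2 (adjusted p = 0.0574 and 0.057) or untreated replicate 1 or 2 (adjusted p = 0.0668 and 0.0604). Dcstamp fell by 0.51 ± 0.07 at 10 µg 24 h (adjusted p = 9.3e-07) and by 0.56 ± 0.07 at 1 µg 24 h (adjusted p = 4.63e-07).

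Ocstamp, its partner in fusion, was a low transcript, with 13, 5 and 4 counts at 10 µg 24 h and 100, 97 and 102 counts at 10 µg 6 h. With 1 µg, Ocstamp had 59, 55 and 41 counts at 24 h and 95, 114 and 97 counts at 6 h, against 124, 94 and 103 counts in untreated cells. In level this was 0.623, 0.252 and 0.194 CPM at 10 µg 24 h and 2.61, 2.38 and 2.02 CPM at 1 µg 24 h, against 6.05, 4.29 and 5.12 CPM in untreated cells. The 24 h groups overlapped neither with each other nor with any other group, and 10 µg 24 h replicates 2 and 3 lay just above the floor of 3 counts. Ocstamp fell by 3.82 ± 0.26 at 10 µg 24 h (adjusted p = 1.94e-12, 14.1-fold lower), the largest change among the 8 genes in these 4 comparisons, and by 1.14 ± 0.19 at 1 µg 24 h (adjusted p = 1.42e-05). Without 10 µg 24 h replicate 1, which had the 13 counts, the change at 10 µg 24 h was -4.49 ± 0.30 (adjusted p = 3.4e-12). Ocstamp counts were 0.573%, 0.292% and 0.208% of the Dcstamp counts at 10 µg 24 h, 2.76%, 2.96% and 2.99% at 10 µg 6 h, 2.72%, 2.36% and 2.43% at 1 µg 24 h, 3.6%, 3.78% and 3.45% at 1 µg 6 h and 4.49%, 3.15% and 3.64% in untreated cells. The 10 µg 24 h libraries had a lower share than every other library.

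Of the effectors, Acp5, the gene of tartrate-resistant acid phosphatase and the classic stain of osteoclasts, had 8.72, 9.58 and 9.18 CPM at 10 µg 24 h and 10.1, 9.34 and 9.46 CPM at 10 µg 6 h. With 1 µg, Acp5 had 7.46, 5.79 and 6.5 CPM at 24 h and 9.18, 8.21 and 8.94 CPM at 6 h, against 9.9, 8.58 and 8.89 CPM in untreated cells. The 1 µg 24 h libraries were below all others, which overlapped. It fell by 0.47 ± 0.11 at 1 µg 24 h (adjusted p = 0.000965), while the value at 10 µg 24 h was 0.01 ± 0.11 (adjusted p = 0.968). Exons of Acp5 overlap 6530413G14Rik on the other strand by 137 bases in GENCODE M21, and whether the counting used strand is not given in the sources used here.

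Mmp9, a secreted gelatinase gene, had 36, 49 and 63 counts at 10 µg 24 h and 12, 15 and 24 counts at 10 µg 6 h. With 1 µg, Mmp9 had 26, 26 and 28 counts at 24 h and 10, 10 and 9 counts at 6 h, against 15, 12 and 21 counts in untreated cells. Its level was highest at 10 µg 24 h (1.73, 2.47 and 3.06 CPM), above every untreated library (0.732, 0.547 and 1.04 CPM). Mmp9 rose by 1.64 ± 0.30 at 10 µg 24 h (adjusted p = 3.26e-05, 3.12-fold higher), and the value at 1 µg 24 h was 0.65 ± 0.33 (adjusted p = 0.0849). Without untreated replicate 3, the highest of its group, the 1 µg 24 h value was 0.92 (adjusted p = 0.0378).

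How the response depended on the amount of peptide was asked at each time. At 24 h, 7 of the 8 genes differed between 10 µg and 1 µg, 3 higher and 4 lower at 10 µg, where 35.3% of all tested genes were called. Src was higher by 0.81 ± 0.07 (adjusted p = 3.31e-09), Acp5 by 0.48 ± 0.11 (adjusted p = 0.00184) and Mmp9 by 0.99 ± 0.28 (adjusted p = 0.00736), the last not called without 10 µg 24 h replicate 3 (0.78, adjusted p = 0.0629). Ocstamp gave -2.69 ± 0.29 (adjusted p = 7.01e-08), or -3.36 without 10 µg 24 h replicate 1 (adjusted p = 2.65e-08). Csf1r gave -0.63 ± 0.08 (adjusted p = 6.58e-06), Tnfrsf11a -0.59 ± 0.07 (adjusted p = 3e-07) and Nfatc1 -0.39 ± 0.06 (adjusted p = 1.02e-05). Over the alternative fits given under data processing, single libraries left out among them, the Csf1r value ran from -0.72 to -0.49 and stayed called. Dcstamp, with 0.04 ± 0.07 (adjusted p = 0.674), did not pass. At 6 h, 2 of the 8 were higher at 10 µg than at 1 µg, where 2.35% of all tested genes were called: Src by 0.53 ± 0.07 (adjusted p = 0.000138) and Nfatc1 by 0.46 ± 0.06 (adjusted p = 2.67e-05).

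The difference between these dose differences, 24 h minus 6 h, passed for 4 of the 8 genes, where 18.6% of all tested genes passed. Ocstamp gave -2.55 ± 0.35 (adjusted p = 1.57e-05), or -3.22 without 10 µg 24 h replicate 1 (adjusted p = 2.17e-06). Nfatc1 gave -0.84 ± 0.08 (adjusted p = 1.99e-07), Csf1r -0.69 ± 0.11 (adjusted p = 0.000367) and Tnfrsf11a -0.42 ± 0.09 (adjusted p = 0.00262). Over the alternative fits the Csf1r value ran from -0.78 to -0.54 and stayed called. In Nfatc1 the sign itself changed, with 10 µg below 1 µg at 24 h and above it at 6 h; in the receptors and Ocstamp the 24 h difference passed and the 6 h one did not. Src gave 0.27 ± 0.10 and missed the threshold (adjusted p = 0.0676), and without 1 µg 24 h replicate 1 it gave 0.37 (adjusted p = 0.00779).

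**Figure D3:**
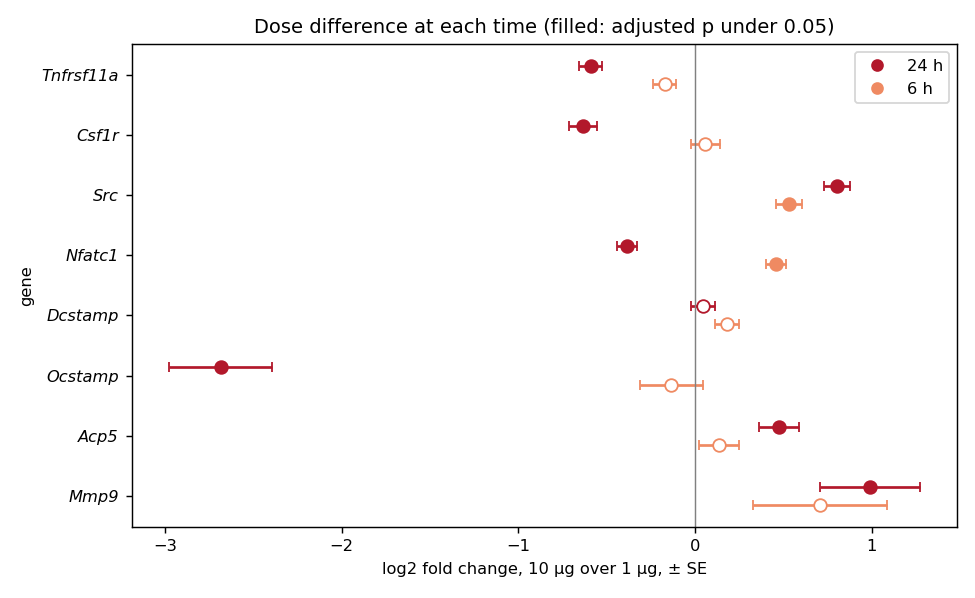
Log2 fold change of 10 µg over 1 µg ± SE (x axis) for the 8 tested genes (rows) at 24 h and at 6 h, with filled points at an adjusted p under 0.05. Nfatc1 lies at -0.39 at 24 h and at 0.46 at 6 h, and Src lies right of 0 at both times.

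Between the times, 7 of the 8 genes differed at 10 µg, where 69.2% of all tested genes were called, and 6 of the 8 at 1 µg, where 60.7% were. No untreated cells are labelled with either time, so length of treatment and time in culture cannot be told apart here either. At 24 h Nfatc1 had a log2 fold change over 6 h of -2.02 ± 0.06 at 10 µg (adjusted p = 3.45e-19, 4.07-fold lower) and gave -1.18 ± 0.06 at 1 µg (adjusted p = 1.03e-14). Ocstamp gave -3.73 ± 0.27 at 10 µg (adjusted p = 4.09e-12), or -4.40 without 10 µg 24 h replicate 1 (adjusted p = 6.71e-12), and -1.18 ± 0.19 at 1 µg (adjusted p = 9.11e-06). Tnfrsf11a gave -1.16 ± 0.07 at 10 µg (adjusted p = 3.21e-13) and -0.74 ± 0.07 at 1 µg (adjusted p = 1.1e-09), and Dcstamp -0.79 ± 0.07 (adjusted p = 1.08e-09) and -0.65 ± 0.07 (adjusted p = 4.51e-08). These 4 genes were lower at 24 h at both amounts, whereas Acp5 gave -0.07 ± 0.11 at 10 µg (adjusted p = 0.568) and fell at 1 µg (-0.41 ± 0.12, adjusted p = 0.00334). Mmp9 was higher at 24 h at both amounts, by 1.54 ± 0.30 at 10 µg (adjusted p = 6.55e-05) and by 1.26 ± 0.35 at 1 µg (adjusted p = 0.00351). Src was higher at 24 h at 10 µg, by 0.38 ± 0.07 (adjusted p = 3.77e-05), and gave 0.11 ± 0.08 at 1 µg (adjusted p = 0.225). Csf1r fell at 10 µg (-0.83 ± 0.08, adjusted p = 4.07e-08) and gave -0.14 ± 0.08 at 1 µg (adjusted p = 0.152), or -0.29 without 1 µg 24 h replicate 1 (adjusted p = 8.01e-06).

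Across the 15 libraries, the genes whose log2 level ran most like each member's were named by Pearson r; the points share their 5 groups, so r carries no p. For Nfatc1 they were Lpcat1 (r = 0.992), a phospholipid-remodelling enzyme gene, and the formin gene Fmnl3 (r = 0.989). For Dcstamp they were the formin gene Fmn1 (r = 0.983) and Rapgef1 (r = 0.982), and for Src the membrane protein gene Tm4sf19 (r = 0.973) and the chemokine receptor gene Cxcr4 (r = 0.962). Tm4sf19 averaged 94.9 CPM at 10 µg 24 h, 67.7 at 10 µg 6 h, 53.8 at 1 µg 24 h, 50.3 at 1 µg 6 h and 45.9 CPM in untreated cells, the same order of groups as Src. Csf1r was followed by Ndrg2 (r = 0.985) and the fractalkine receptor gene Cx3cr1 (r = 0.985), Tnfrsf11a by Paxip1 (r = 0.994) and the heterochromatin protein gene Cbx5 (r = 0.993), and Ocstamp by the adhesion gene Nectin3 (r = 0.988) and Car5b (r = 0.985). Acp5 was followed by Cdc26 (r = 0.936) and the proton pump gene Atp6v1h (r = 0.925), and Mmp9 by the NADPH oxidase subunit gene Ncf4 (r = 0.952) and Chkb (r = 0.950). Between members, r was 0.963 for Nfatc1 with Dcstamp and 0.961 for Tnfrsf11a with Ocstamp.

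The wider pathway was described with 7 lists of 120 genes, of which 113 were tested. At 10 µg 24 h 38 rose and 45 fell, at 10 µg 6 h 16 rose and 7 fell, at 1 µg 24 h 26 rose and 47 fell, and at 1 µg 6 h edgeR called 0 (4 had an unadjusted p under 0.05, and DESeq2 called 0). The lists' shares called were 73.5% at 10 µg 24 h, 20.4% at 10 µg 6 h and 64.6% at 1 µg 24 h, beside 70.3%, 5.95% and 61.8% of all tested genes, so the counts at 24 h are near the background. The 23 calls at 10 µg 6 h became 15 to 19 when single libraries of the groups compared were left out, with 15 without 10 µg 6 h replicate 3 or untreated replicate 3. Of the genes named by rule that were called there, Fcgr3, Junb, Id2 and Atp6v0d2 each lost the call without at least 1 library, with adjusted p up to 0.12.

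Among 21 tested genes of RANK and M-CSF signalling, 5 rose and 10 fell at 10 µg 24 h, and 4 rose and 10 fell at 1 µg 24 h. The shares called, 71.4% and 66.7%, are near the 70.3% and 61.8% of all tested genes. Gab2, the adaptor that joins RANK to its kinases, rose to 145.5 ± 6.21 CPM at 10 µg 24 h and 96.4 ± 4.65 CPM at 1 µg 24 h, against 61.1 ± 3.94 CPM in untreated cells (1.25 ± 0.05, adjusted p = 3.23e-16, and 0.66 ± 0.06, adjusted p = 1.94e-10). Relb, of the non-canonical NF-kB pathway, rose by 0.98 ± 0.07 at 10 µg 24 h (adjusted p = 1.07e-12), and at 10 µg 6 h the risers were Relb (0.40 ± 0.07, adjusted p = 0.00053) and Nfkb2 (0.21 ± 0.05, adjusted p = 0.0201), while the p38 kinase gene Mapk14 fell (-0.18 ± 0.04, adjusted p = 0.0158). These 3 calls of the list became 1 to 2 with single libraries left out. Akt1, a survival kinase gene, fell by 0.58 ± 0.05 at 10 µg 24 h (adjusted p = 2.2e-10). Of 17 genes of ITAM co-receptors and calcium signalling, 8 rose and 4 fell at 10 µg 24 h, and 7 rose and 3 fell at 1 µg 24 h (70.6% and 58.8% called, again near the shares of all genes). Those named by rule rose at 10 µg 24 h: Fcgr3, an Fc receptor gene (0.90 ± 0.07, adjusted p = 9.17e-12), and the adaptor genes Lcp2 (0.95 ± 0.07, adjusted p = 1.37e-10) and Blnk (1.00 ± 0.10, adjusted p = 2.3e-09). At 10 µg 6 h Fcgr3 was lower than in untreated cells (-0.30 ± 0.07, adjusted p = 0.00876). Lcp2 (0.41 ± 0.07, adjusted p = 0.00113) and the kinase gene Syk (0.16 ± 0.04, adjusted p = 0.0241) were higher there. These 3 calls, 17.6% of the list beside 5.95% of all tested genes, became 1 to 3 with single libraries left out.

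Of 15 tested transcription factors beside Nfatc1, 3 rose and 8 fell at 10 µg 24 h, and 3 rose and 7 fell at 1 µg 24 h. These were 73.3% and 66.7% of the list, near the 70.3% and 61.8% of all tested genes. Fos, which acts upstream of Nfatc1 in mice, averaged 39.1 ± 1.25 CPM at 10 µg 24 h, 146.2 ± 0.428 CPM at 10 µg 6 h, 71 ± 11.1 CPM at 1 µg 24 h, 140.6 ± 0.436 CPM at 1 µg 6 h and 126.1 ± 6.55 CPM in untreated cells. It fell by 1.69 ± 0.08 at 10 µg 24 h (adjusted p = 3.27e-14) and by 0.83 ± 0.07 at 1 µg 24 h (adjusted p = 3.23e-09). Nfatc2, a family member, fell by 0.74 ± 0.06 (adjusted p = 1.23e-11) and the AP-1 gene Junb by 0.60 ± 0.05 (adjusted p = 3.54e-10), both at 10 µg 24 h. Jun went the other way, with 0.57 ± 0.06 at 10 µg 24 h (adjusted p = 4.67e-09). At 10 µg 6 h the 2 that rose were Fosl2 (0.46 ± 0.08, adjusted p = 0.00108) and Junb (0.22 ± 0.05, adjusted p = 0.0123).

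Genes that restrain osteoclast formation moved both ways: 6 of 16 rose and 7 fell at 10 µg 24 h, and 5 rose and 5 fell at 1 µg 24 h. That is 81.2% and 62.5% called, beside 70.3% and 61.8% of all tested genes. The 2 named genes of inhibitors of helix-loop-helix factors fell at 24 h. Id1 averaged 1.79 ± 0.495 CPM at 10 µg 24 h and 3.29 ± 0.985 CPM at 1 µg 24 h, against 33.1 ± 2.02 CPM in untreated cells (-4.20 ± 0.14, adjusted p = 2.78e-17, and -3.32 ± 0.13, adjusted p = 8.58e-16). Id2 averaged 43.3 ± 0.953 CPM at 10 µg 24 h and 21 ± 0.848 CPM at 1 µg 24 h, against 143 ± 4.91 CPM in untreated cells (-1.72 ± 0.05, adjusted p = 7.35e-19, and -2.77 ± 0.06, adjusted p = 5.1e-22). Its fall was smaller at 10 µg than at 1 µg, with a difference of 1.04 ± 0.06 (adjusted p = 2.66e-12). Lilrb4a, an inhibitory receptor gene, rose by 0.90 ± 0.05 at 10 µg 24 h (adjusted p = 1.87e-14). At 10 µg 6 h the risers were Tnfaip3, Lilrb4a and Rbpj, and those that fell included Id3 and Id2. Tnfaip3, the gene of the NF-kB brake A20, rose by 0.79 ± 0.07 (adjusted p = 2.37e-07).

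Of 14 tested genes of cell fusion outside the 10, 5 rose and 4 fell at 10 µg 24 h, and 3 rose and 5 fell at 1 µg 24 h. The shares called, 64.3% and 57.1%, are near the 70.3% and 61.8% of all tested genes. Atp6v0d2, the proton pump subunit that fusion requires in mice, averaged 159.7 ± 7.43 CPM at 10 µg 24 h, 52.1 ± 1.95 CPM at 10 µg 6 h, 44.9 ± 3.71 CPM at 1 µg 24 h, 43.4 ± 2.89 CPM at 1 µg 6 h and 44.4 ± 1.02 CPM in untreated cells. It rose by 1.85 ± 0.06 at 10 µg 24 h over untreated cells (adjusted p = 1.65e-18) and by 1.83 ± 0.06 over 1 µg 24 h (adjusted p = 1.4e-17), opposite in direction to Dcstamp and Ocstamp in the first comparison. Adam8, a membrane protease gene, fell by 1.01 ± 0.07 (adjusted p = 1.89e-10) and Myo10, a filopodial myosin gene, by 0.66 ± 0.05 (adjusted p = 5.82e-11), both at 10 µg 24 h. Of 16 genes of podosomes and attachment, 4 rose and 10 fell at 10 µg 24 h, and 3 rose and 10 fell at 1 µg 24 h (87.5% and 81.2% called, beside 70.3% and 61.8% of all tested genes). Itgav, the alpha chain of the vitronectin receptor, averaged 62.1 ± 4.58 CPM at 10 µg 24 h and 73.9 ± 4.44 CPM at 1 µg 24 h, against 181.4 ± 2.24 CPM in untreated cells (-1.55 ± 0.06, adjusted p = 8.96e-18, and -1.29 ± 0.05, adjusted p = 6.68e-16). At 10 µg 6 h Itgav rose, to 222.6 ± 9.13 CPM (0.30 ± 0.05, adjusted p = 0.000709). The Rac exchange factor gene Dock5 fell by 0.79 ± 0.05 (adjusted p = 5.51e-14), and Vav3, another exchange factor gene, rose by 0.71 ± 0.07 (adjusted p = 4.67e-09), both at 10 µg 24 h.

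Most genes listed as bone resorption machinery were higher with 10 µg than with 1 µg at 24 h. Calcr had at most 1 count in any library, and whether these differences belong to an osteoclast program was not tested. Of the 14 listed genes, 7 rose and 2 fell (Ckb and Car2) at 10 µg 24 h, with a median log2 fold change of 0.27. That is 64.3% called, beside 70.3% of all tested genes. At 1 µg 24 h 1 rose (Clcn7) and 7 fell, with a median of -0.16, beside medians of 0.01 over all tested genes in both. The 8 calls at 1 µg 24 h, 57.1% beside 61.8% of all tested genes, became 5 with upper-quartile scaling. Between the amounts, 11 of the 14 were higher at 10 µg 24 h than at 1 µg 24 h and 1 was lower (Car2), with a median of 0.43, beside -0.01 over all tested genes. That is 85.7% called, beside 35.3% of all tested genes. At 10 µg 6 h, Clcn7, Tcirg1, Slc9b2 and Ctsk rose over untreated cells and 0 fell, 28.6% beside 5.95% of all tested genes. Between the amounts at 6 h, Clcn7, Tcirg1 and Slc9b2 were higher at 10 µg and 0 were lower, 21.4% beside 2.35%. With 1 library left out, the calls became 3 to 4 in the first of these comparisons and 1 to 2 in the second. Clcn7, the chloride exchanger of the ruffled border, averaged 211.3 ± 11.1 CPM at 10 µg 24 h and 122.5 ± 6.15 CPM at 1 µg 24 h, against 101.7 ± 1.25 CPM in untreated cells (1.05 ± 0.06, adjusted p = 1.17e-14, and 0.27 ± 0.06, adjusted p = 0.000214). Atp6v1c1, a proton pump subunit gene, rose by 0.73 ± 0.06 at 10 µg 24 h (adjusted p = 3.08e-11) and gave -0.05 ± 0.06 at 1 µg 24 h (adjusted p = 0.443). Ctsk averaged 2966 ± 217 CPM at 10 µg 24 h and 1974 ± 77.7 CPM at 1 µg 24 h, against 2219 ± 75.5 CPM in untreated cells. It rose at 10 µg (0.42 ± 0.05, adjusted p = 1.26e-07) and fell at 1 µg (-0.17 ± 0.05, adjusted p = 0.00789). Ckb, the creatine kinase that supplies the pump with energy, fell at both, by 0.57 ± 0.05 at 10 µg 24 h (adjusted p = 6.03e-10) and by 0.47 ± 0.05 at 1 µg 24 h (adjusted p = 3.67e-08).

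**Figure D4:**
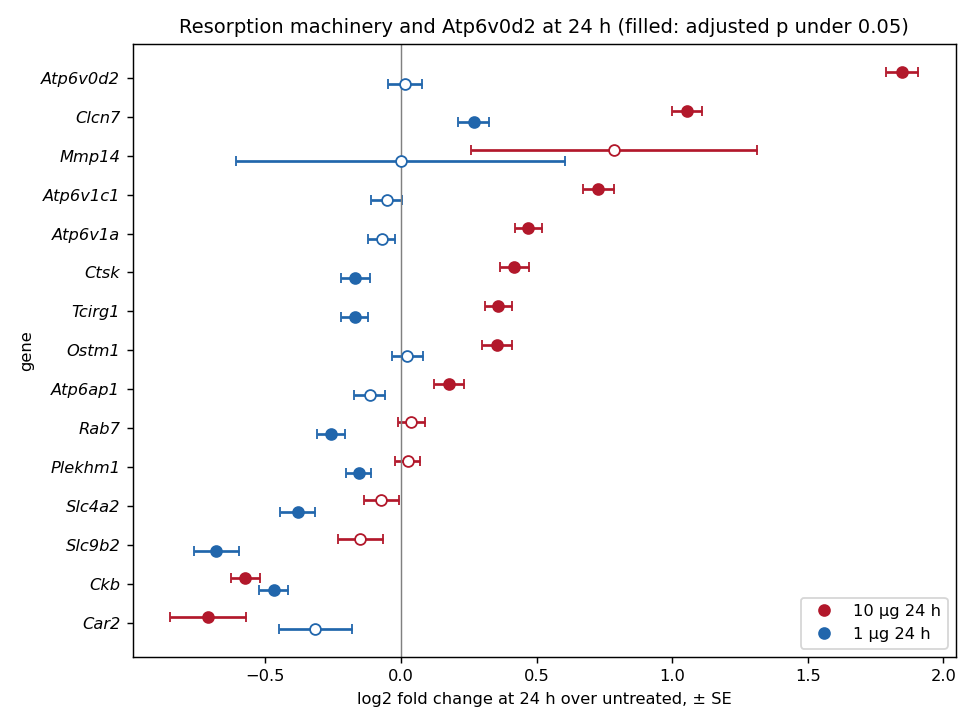
Log2 fold change over untreated cells ± SE (x axis) of the 14 genes of the resorption machinery and of Atp6v0d2 (rows) at 10 µg 24 h and 1 µg 24 h, with filled points at an adjusted p under 0.05. Atp6v0d2 lies at 1.85 with 10 µg and at 0.01 with 1 µg, and Ckb lies left of 0 with both.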

How the data were processed

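Whole-number read counts per gene symbol, in 1 table with a column for each of the 15 libraries, were deposited by the authors. Libraries of mRNA came from a stranded TruSeq kit, per the labels' protocols, and GRCm39 is the build in the submitters' processing notes. Not given in the sources used here: aligner, counter, annotation, strand setting. The package edgeR 4.0.16 under R 4.3.3 was run on the counts, with filterByExpr, TMM, 1 robust glmQLFit over all 15 libraries (10 residual degrees of freedom) and 9 two-sided contrasts, adjusted over the 12401 genes tested; the median prior degrees of freedom were 14.9 and the common biological coefficient of variation was 5.68%. The code was tested on simulated data. CPM per kb used GENCODE M21 exon unions. Alternatives were RLE and upper-quartile scaling, no filter, DESeq2 1.42.0, fits of the compared groups alone, a block on replicate number, and each library left out.

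The 10 genes and the lists were chosen with earlier results of these data known. From each pathway list the 3 genes with the smallest p in any comparison with untreated cells were named. Others were named only where a count was 5 or fewer, and not for every such count. Ctsk was named as a marker of mature osteoclasts, and Jun was chosen after its values were seen. Some listed genes are not reported here by name. For each tested gene of the 10, the 2 genes highest in r (log2 CPM, prior count 2, mean CPM of at least 5) were named.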

Additional observations from a re-analysis of the deposited data

Results flagged for a closer look

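The effect of 10 µg over 1 µg differed between 24 h and 6 h in 4 of the 8 tested genes of the 10. This came from edgeR's quasi-likelihood test of the interaction between amount and time, adjusted over all 12401 genes. Of all tested genes 18.6% passed it. The effect at 24 h minus the effect at 6 h was -2.5518 for Ocstamp (adjusted p = 1.57e-05), -0.8429 for Nfatc1 (adjusted p = 1.99e-07), -0.6933 for Csf1r (adjusted p = 0.000367) and -0.4192 for Tnfrsf11a (adjusted p = 0.00262) on the log2 scale. Without 10 µg 24 h replicate 1 the value for Ocstamp was -3.22 (adjusted p = 2.17e-06). Over the alternative fits the value for Csf1r ran from -0.78 to -0.54. All 4 were more negative at 24 h than at 6 h. No test of single outlying libraries was run, because groups of 3 libraries were below the minimum of 4 set for it.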

How the results depend on the processing

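The calls of the 8 tested genes in 9 comparisons (72 results) were all on the same side of the threshold with RLE size factors, with no filter on low counts and with DESeq2, and none changed direction while called under any alternative run. Upper-quartile scaling changed 2, both gained; it moved the median of all genes to 0.12 at 10 µg 24 h and to 0.13 for 24 h over 6 h at 10 µg. With only the compared groups in the fit, 4 of the 8 differed between 10 µg and 1 µg at 6 h, in place of 2, Tnfrsf11a (adjusted p = 0.00256) and Dcstamp (adjusted p = 0.00089) being gained. Leaving out 1 library gave 2 to 3 calls at 10 µg 6 h against untreated cells (3 with all libraries) and 4 to 6 for the interaction, where Src (adjusted p = 0.0456) and Dcstamp (adjusted p = 0.0468) were gained without 10 µg 24 h replicate 1. In the 7 pathway lists, chosen for this after seeing the data, the 11 calls between the amounts at 6 h became 2 to 4 with 1 library left out and 34 with only the compared groups fitted, and the 23 at 10 µg 6 h against untreated cells reached 40 under other settings. Of all tested genes, the main fit called 2.35% between the amounts at 6 h and 5.95% at 10 µg 6 h against untreated cells. For the interaction it called 18.6%. The shares of all genes under these alternatives were not compared, so the changes in count cannot be read as particular to these genes. For same-numbered replicates of different groups, r between their deviations ran from -0.0814 to 0.0963 over 30 pairs (median 0.0168). Over the 60 other pairs r ran from -0.0943 to 0.12 (median -0.0074). Whether the replicate numbers pair libraries was not tested. With the replicate block the interaction passed for 5 genes in place of 4 (Src, adjusted p = 0.0484), and the other comparisons kept their counts. Depth limits Oscar and Calcr, which could not be tested under the filter, and widens the errors of Ocstamp and Mmp9.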
